A study of Mus musculus with 36 samples.

Results

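Circular RNAs (circRNAs) of the mouse genes Tulp4, Gigyf2 and Dtnb were described in hippocampus and frontal cortex over the day. Members were all circRNAs with both ends inside one of these genes on its strand (GENCODE M21, GRCm38), which gave 65 of the 33259 circRNAs counted, 20 from Tulp4, 16 from Gigyf2 and 29 from Dtnb. The genes had been selected on the number of reads of their most abundant circle (the top circle) in these same samples, so that abundance is a description and was not tested. Total RNA came from 9- to 10-week-old male C57BL/6 mice (C57BL6/N in the study's methods), with no treatment or allele named in the labels, kept with lights on from 6 AM to 6 PM. Each tissue was sampled at 6 Zeitgeber times (ZT, hours after lights on), with ZT1, ZT5 and ZT9 in the light phase and ZT13, ZT17 and ZT21 in the dark phase, and with 3 replicates at each, so that 18 samples stood for each tissue and 9 for each phase of a tissue. The value for each circRNA and sample is the number of sequencing reads that cross its back-splice junction, the site where a downstream exon end is joined to an upstream exon start.

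A circRNA forms when the spliceosome joins a donor site to an acceptor that lies before it in the transcript, which closes the exons between them into a ring. Such rings have no free ends, resist exonucleases and accumulate in the brain, where neurons hold many of them. Tulp4 encodes a tubby-like protein with a SOCS box, the motif through which proteins are brought to Cullin ubiquitin ligases. Gigyf2 encodes a partner of the cap-binding protein 4EHP (Eif4e2) in the repression of translation. Dtnb encodes beta-dystrobrevin, a cytoplasmic member of the dystrophin-associated protein complex.

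The back-splice junctions of the 6 circRNAs that had enough reads to be tested are shown first, since the counts of these 6 are counts of reads across these sequences. Lower case marks the 15 bases before the donor site and capitals mark the 15 bases after the acceptor site, read 5′ to 3′ from the GENCODE M21 transcripts on the plus strand of GRCm38.
Tulp4 top circle: ggccacaacagtgagAGTTGTAAGAGTCCA
Tulp4 long circle: cccgatgaccagcagAGTTGTAAGAGTCCA
Gigyf2 top circle: gaagaaaagatgtagGCTCCGTGCTCTGTC
Dtnb top circle (exons 5 to 8): gagcattcctcttggTGAGGGCCGAGGCAA
Dtnb exon 5 to 9 circle: ccttgcacatctagtTGAGGGCCGAGGCAA
Dtnb exon 6 to 8 circle: gagcattcctcttggACATTTTCTCCCAGA
Both Tulp4 circles carry the same capitals and differ in the donor. The top circle and the exon 5 to 9 circle of Dtnb also share the acceptor, while the exon 6 to 8 circle shares the donor of the top circle.

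The Tulp4 top circle spans chr17:6137211-6139156, 1946 bases, and all 1946 bases are exonic in overlapping annotated exons. No single annotated exon had both of its ends. Its start is the start of an exon of other Tulp4 transcripts, its end is the end of exon 1 of the reference transcript (the lowest-numbered GENCODE transcript of each gene), and it holds the annotated start codon at base 1695 with 252 bases of coding sequence. The Tulp4 long circle runs from the same start to chr17:6137211-6185298. The Gigyf2 top circle (chr1:87364104-87380008) has the ends of exons 4 to 8 of the 29 exons of Gigyf2, which sum to 494 bases of coding sequence. The Dtnb top circle (chr12:3617606-3648389) has the ends of exons 5 to 8 of the 19 exons of Dtnb, 514 coding bases, and the exon 5 to 9 circle (chr12:3617606-3686862) adds exon 9 to reach 639 bases. The length of 639 is a multiple of 3, that of 514 is not. Inner exons were taken from the annotation, since the junction reads do not show what lies between the ends. A feature that the 3 top circles shared was the intron after their donor, which was the longest intron of the reference transcript in each gene. It measured 37672 bases in Tulp4, 23658 bases in Gigyf2 and 38348 bases in Dtnb, where the median introns measured 4498, 2551.5 and 8465 bases.

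Library depth ranged from 6754 to 73252 circular reads in hippocampus (median 21923.5) and from 8107 to 34803 in frontal cortex (median 20301). The 3 libraries that stood apart were the deepest, hippocampus ZT1 replicate 3, and the shallowest of each tissue, hippocampus ZT13 replicate 1 and frontal cortex ZT9 replicate 3, and results are also given without them where they change. The tissue labels were compared with circRNAs from marker genes. Hippocampus markers (6 of 8 genes with circRNAs, Dsp and Etv1 at 0) summed to between 740 and 2900 CPM (counts per 1000000 of all circular reads) in hippocampus and to between 0 and 710 in frontal cortex. Cortex markers (6 of 9, Rorb, Fezf2 and Lamp5 at 0) summed to between 0 and 1154 in hippocampus and between 390 and 2044 in frontal cortex. Striatum markers (3 of 6, with Drd1, Drd2 and Adora2a at 0) reached at most 162 and astrocyte markers (3 of 6, Gfap, Aqp4 and Gja1 at 0) at most 367 in any library, in the same unit. The 5 microglia genes and 4 choroid plexus genes gave no circRNA. In bulk tissue, fewer cells of a type and less of the RNA per cell cannot be told apart.

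One circle carried most of the circular reads of each gene, and most of the rest used its start. The Tulp4 top circle held 8199 of 8993 reads (91.17%), the Gigyf2 top circle 7605 of 7864 (96.71%) and the Dtnb top circle 4098 of 5718 (71.67%). By reads, the Tulp4 and Gigyf2 top circles ranked 2 and 3 among all circRNAs in both tissues, behind a circle of C230004F18Rik, and the Dtnb top circle ranked 7 in hippocampus and 5 in frontal cortex. Circles with the start of the top circle held 98.18% of the Tulp4 reads, 99.68% of the Gigyf2 reads and 89.93% of the Dtnb reads. The end of the top circle held 92.29%, 96.73% and 77.82%. Dtnb therefore had a larger part of its reads away from the end of its top circle than the other genes did, mainly in the exon 5 to 9 circle with 981 reads. The Tulp4 long circle had 417 reads and the Dtnb exon 6 to 8 circle 216.

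**Figure D1:**
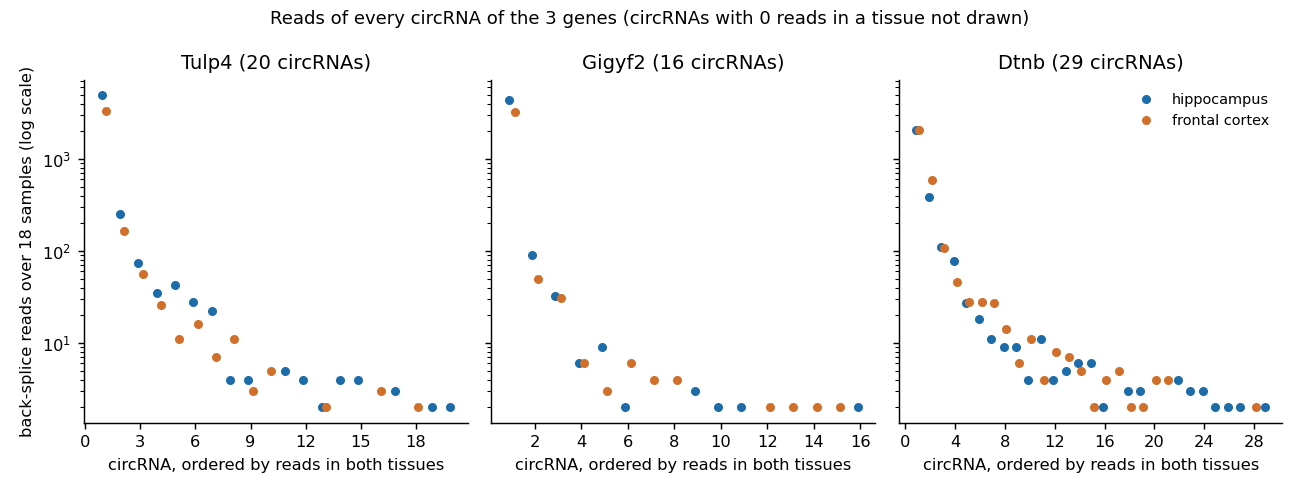
Back-splice reads summed over 18 samples (log scale) for every circRNA of Tulp4, Gigyf2 and Dtnb, ordered by reads in both tissues, with blue for hippocampus and orange for frontal cortex. The top circles lie at 4917, 4396 and 2058 reads in hippocampus and at 3282, 3209 and 2040 reads in frontal cortex, and most other circRNAs have fewer than 10.

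The other 59 circRNAs had between 2 and 139 reads each, with a median of 5, and together held 4.69% of the reads of the 3 genes. They did not pass the filter on low counts. Of all 65 members, 34 were seen in both tissues, 18 in hippocampus only and 13 in frontal cortex only, and none of those seen in 1 tissue had more than 5 reads, so their absence from the other tissue was not detectable at this depth. In hippocampus 52 of the 65 members were seen and in frontal cortex 47. Over all 33259 circRNAs these numbers were 23730 and 19811, so detection in 1 tissue only was frequent in the whole series too. In 24 of the 65, the reads came from 1 sample. Among those with more reads were the Gigyf2 exon 4 to 6 circle with 90 reads in hippocampus and 49 in frontal cortex, the Gigyf2 exon 4 to 5 circle with 32 and 31, a Tulp4 circle ending at 6176957 with 73 and 56, and the Dtnb exon 4 to 8 circle with 78 and 46. Away from the main start, the Dtnb exon 14 to 15 circle had 27 and 28 reads, and the Tulp4 exon 4 to 6 circle 22 and 7. A Tulp4 circle starting at 6118296 and ending at the top donor had 43 reads in hippocampus and 11 in frontal cortex, and one starting at 6121828 had 28 and 16. A Tulp4 circle ending at 6207057 had 35 and 26. Among the 5 Gigyf2 members with most reads, the remaining ones, ending at 87380593 and lying in exons 15 to 21, had 12 reads each.

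Levels below are given as CPM of the circular reads of tested circRNAs, after TMM scaling over the 36 samples. Each circle is counted at 1 junction, so levels of different circles need no correction for length. The Tulp4 and Gigyf2 top circles stood at nearly the same level and the Dtnb top circle below both in every library. Tulp4 exceeded Gigyf2 in 13 of 18 hippocampus libraries and in 10 of 18 frontal cortex libraries, with a median read ratio of 1.09 and 1.03, so these neighbours were not separated by their spread. Gigyf2 exceeded Dtnb in 18 of 18 libraries of each tissue, with a median ratio of 2.11 in hippocampus (1.69 to 2.96) and 1.60 in frontal cortex (1.15 to 4.29).

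The comparison of tissues asks whether circles of the same gene keep the same level in hippocampus and frontal cortex. The Tulp4 and Gigyf2 top circles were slightly higher in hippocampus, and the exon 5 to 9 circle of Dtnb was higher in frontal cortex by a wider margin. Of the 710 circRNAs tested, 217 differed (30.6%), 16.5% higher in hippocampus and 14.1% higher in frontal cortex. Of the 5 members tested, 3 passed, a share to be read against that background, where differences between the tissues were common. The Tulp4 and Gigyf2 top circles, which were among those that passed, had been selected on their reads in these same samples, though each had the same rank in both tissues. Whether that selection affects their p-values was not tested. The median log2 fold change, hippocampus minus frontal cortex, was 0.02 over all tested circRNAs and -0.0021 over the 6 members fitted.

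For the Tulp4 top circle, the lowest, median and highest CPM were 8690, 19845 and 24781 in hippocampus (46 to 819 reads) and 8706, 16402 and 17794 in frontal cortex (52 to 280 reads). The low end of each tissue was its shallowest library, and the other 17 hippocampus samples lay above every frontal cortex sample. The circle was higher in hippocampus, with a log2 fold change of 0.31 (SE 0.10, 1.24-fold, adjusted p = 0.0133, quasi-likelihood test of edgeR, Benjamini-Hochberg adjusted over 710 circRNAs). Its mean was higher in hippocampus at 6 of 6 time points.

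For the Gigyf2 top circle, CPM ran from 13980 over a median of 18205 to 22337 in hippocampus (74 to 644 reads) and from 12870 over 16239 to 20091 in frontal cortex (107 to 288 reads). The ranges overlapped, and the highest frontal cortex value was that of the library that stood apart, ZT9 replicate 3. The circle was higher in hippocampus by a log2 fold change of 0.20 (SE 0.07, 1.15-fold, edgeR adjusted p = 0.0374) and at 6 of 6 time points. Leaving out frontal cortex ZT13 replicate 1, frontal cortex ZT9 replicate 1 or hippocampus ZT13 replicate 2 moved the adjusted p to 0.0503, 0.0516 and 0.0568, and without the 3 libraries that stood apart it was 5.94e-04.

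For the Dtnb exon 5 to 9 circle, CPM ran from 0 over a median of 1743 to 2083 in hippocampus (0 to 56 reads) and from 2092 over 2995 to 4461 in frontal cortex (20 to 44 reads). On this scaling the ranges did not overlap, by a narrow margin (2092 against 2083 CPM): each of the 18 frontal cortex samples lay above the highest hippocampus sample. The share of tested circRNAs with such separate ranges was not computed. By the edgeR test, a different measure, 14.1% of all tested circRNAs were called higher in frontal cortex. The library at 0 was hippocampus ZT13 replicate 1, the shallowest. The circle was lower in hippocampus, with a log2 fold change of -0.87 (SE 0.15, 1.83-fold, edgeR adjusted p = 1.93e-05), rank 30 of 710 by p, and the adjusted p stayed between 4.14e-06 and 1.21e-04 in the 36 fits that left out 1 library. Its fold change without the 3 libraries that stood apart was -0.78.

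The Dtnb top circle, which shares the acceptor, ran from 5290 over a median of 8864 to 10284 CPM in hippocampus (28 to 337 reads) and from 4688 over 9986 to 14202 in frontal cortex (28 to 218 reads). The hippocampus range lay within that of frontal cortex, and 15 of 18 frontal cortex samples lay above the hippocampus median. Its log2 fold change was -0.22 (SE 0.10), and it is given as a description, because the gene was chosen with its tissue ranks known. The Dtnb exon 6 to 8 circle, with 0 to 994 CPM in hippocampus and 206 to 876 in frontal cortex, had a log2 fold change of -0.21 (SE 0.24, edgeR adjusted p = 0.561). The Tulp4 long circle, with 556 to 1606 CPM in hippocampus and 523 to 1507 in frontal cortex, had 0.32 (SE 0.14, edgeR adjusted p = 0.0912), and 0.0441 without frontal cortex ZT9 replicate 3. Its estimate had the same size as that of the Tulp4 top circle at a larger error.

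**Figure D2:**
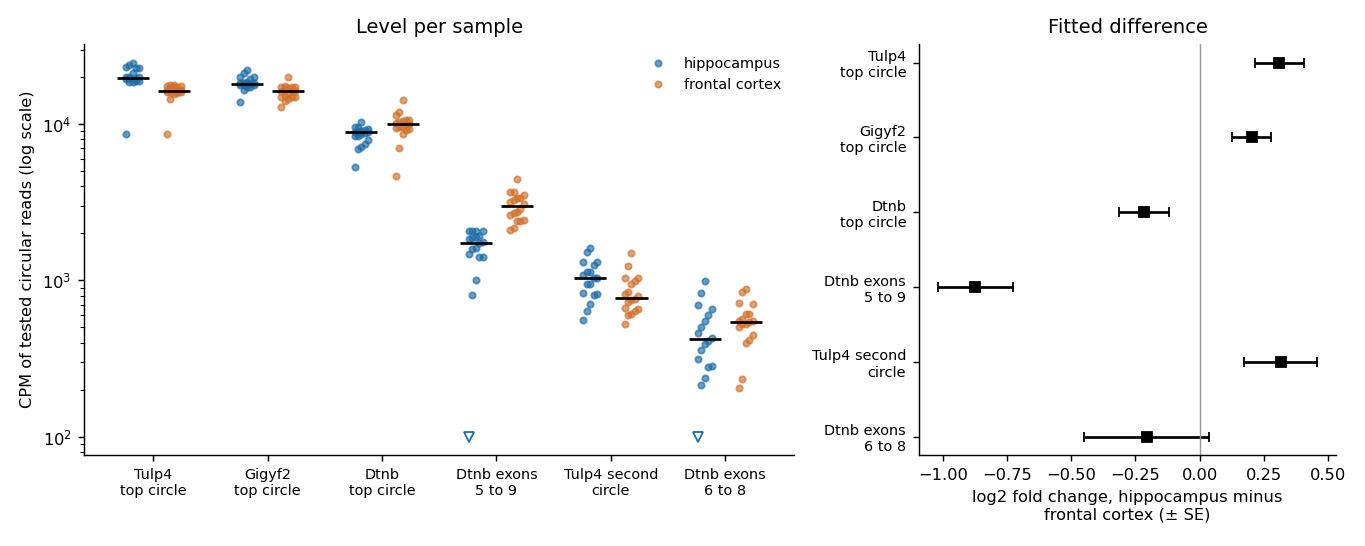
Left, level of the 6 tested circRNAs in each of the 36 samples as CPM of tested circular reads (log scale), with a black line at the median of each tissue and open triangles, drawn at 100, for samples with 0 reads. Right, fitted log2 fold change, hippocampus minus frontal cortex, with its standard error. The Dtnb exon 5 to 9 circle lies at -0.87 and its frontal cortex samples lie above all hippocampus samples.

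Shares within a gene do not depend on the scaling between libraries, and the mean share of the Dtnb top circle was lower in frontal cortex. The top circle held a mean of 74.4% ± 4.51 (SD, n = 18) of the Dtnb circular reads in hippocampus and 68.2% ± 6.11 (SD, n = 18) in frontal cortex. Values ran from 64.4% over a median of 74.8% to 83.8% in hippocampus and from 52.8% over 69.0% to 76.6% in frontal cortex, so the ranges overlapped. The difference of 6.22 percentage points had an adjusted p of 0.0119 (two-sided permutation test, 100000 resamples, adjusted over 9 share tests). Without the 3 libraries that stood apart it was 4.92 points with an adjusted p of 0.0509 (permutation test). The share contains the reads of the top circle, and the gene was chosen with the tissue ranks of that circle known. These p-values are therefore not independent of the choice, and the difference is best read as a description. The lowest frontal cortex value came from ZT9 replicate 3 with 28 of 53 reads (95% Wilson interval 39.7% to 65.6%). The exon 5 to 9 circle held 0 to 20.2% of the Dtnb reads in hippocampus (median 14.8%) and 13.5 to 41.5% in frontal cortex (median 21.3%), with 16 of 18 frontal cortex samples above the hippocampus median.

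The Tulp4 and Gigyf2 top circles took closely similar shares in both tissues. For Tulp4 the mean share was 90.5% ± 4.52 in hippocampus and 90.9% ± 3.92 in frontal cortex (SD, n = 18 each), a difference of -0.48 points (permutation test, adjusted p = 0.792). For Gigyf2 it was 96.8% ± 1.62 and 96.6% ± 2.04, a difference of 0.19 points (permutation test, adjusted p = 0.792). The low ends were hippocampus ZT13 replicate 1, with 46 of 62 Tulp4 reads (74.2%, Wilson interval 62.1% to 83.4%), and frontal cortex ZT9 replicate 3, with 52 of 68 (76.5%, 65.1% to 85.0%). Gigyf2 reached 100% in some libraries, for example with 221 of 221 reads in hippocampus ZT5 replicate 2 (lower bound 98.3%). These intervals cover counting error only.

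**Figure D3:**
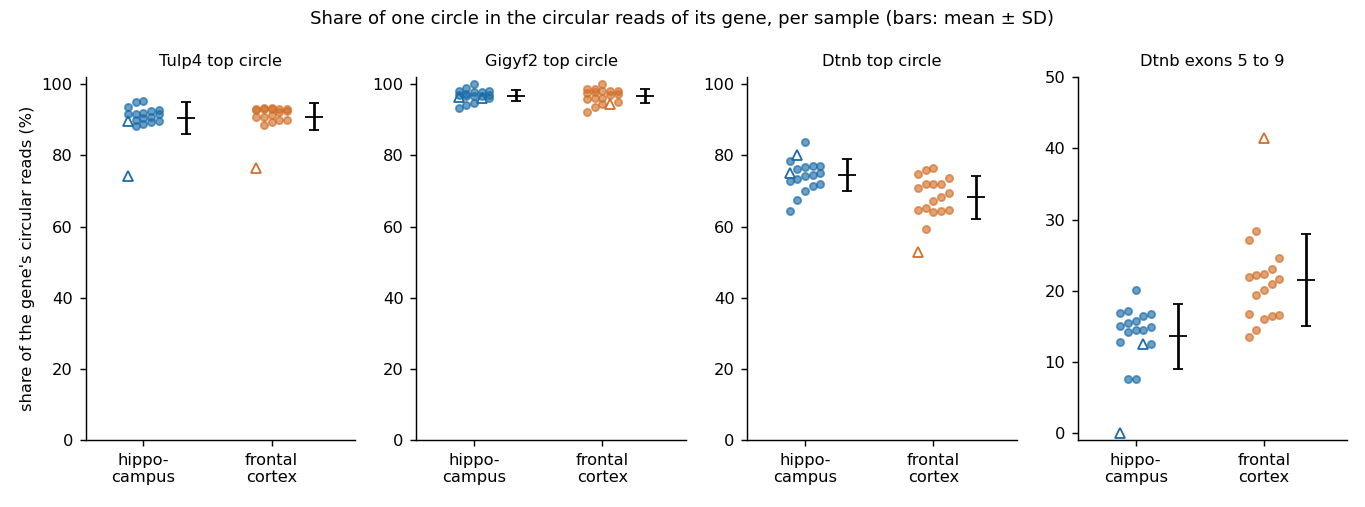
Share of 1 circle in the circular reads of its gene, in percent, for each sample, with the mean and SD of 18 samples per tissue as black bars and open triangles for the 3 libraries that stood apart. The Dtnb top circle has a mean of 74.4% in hippocampus and 68.2% in frontal cortex, and the exon 5 to 9 circle (axis to 50%) has medians of 14.8% and 21.3%.

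The time course asks whether the circles change over the light and dark phases. No member passed any of the tests over time in either tissue. Levels were scaled to the circular reads of the tested circRNAs, so these tests see change relative to other circRNAs only. The study reported that the total of circular reads itself changed over the day in both tissues, and a change common to all circRNAs was not tested here. Among the 582 circRNAs tested in hippocampus, edgeR called 0 over the 6 time points (0.0%), 0 between dark and light phase (0.0%) and 0 for a 24-h rhythm (0.0%), where an unadjusted p under 0.05 was reached by 19, 28 and 13 and DESeq2 called 0, 1 and 1. Among the 518 in frontal cortex the calls were 1 (0.193%), 0 (0.0%) and 0 (0.0%), with 12, 16 and 25 at an unadjusted p under 0.05 and with 0, 0 and 1 called by DESeq2. For the 5 members tested in each tissue, the lowest unadjusted p of these 3 tests in edgeR was 0.0803, for the Tulp4 long circle over the 6 time points in hippocampus (adjusted p = 0.999).

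The Tulp4 top circle had 18514 to 24022 CPM in the light phase (median 20125) and 8690 to 24781 in the dark phase (median 19557) of hippocampus, a log2 fold change, dark minus light, of -0.12 (SE 0.14). In frontal cortex it had 8706 to 17794 (median 17094) and 15720 to 17676 (median 16271), a log2 fold change of 0.02 (SE 0.12). In each tissue the phases overlapped and the low end came from 1 shallow library, ZT13 replicate 1 in hippocampus and ZT9 replicate 3 in frontal cortex. The Gigyf2 top circle had 16515 to 20132 CPM in light (median 17918) and 13980 to 22337 in dark (median 18622) in hippocampus, with a log2 fold change of 0.08 (SE 0.10), and 13996 to 20091 (median 16211) against 12870 to 17594 (median 16352) in frontal cortex, with -0.04 (SE 0.12). Its coefficient of variation was 9.91% in hippocampus and 10.3% in frontal cortex over 18 samples, against 17.2% and 12.8% for Tulp4 and 13.9% and 19.9% for Dtnb. Without the 3 libraries that stood apart it was 8.22% and 8.55% for Gigyf2, 9.61% and 5.47% for Tulp4 and 10.3% and 15.0% for Dtnb, so that Tulp4 then varied least in frontal cortex.

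The Dtnb top circle had 6925 to 10284 CPM in light (median 9248) and 5290 to 9002 in dark (median 8396) in hippocampus, a log2 fold change of -0.17 (SE 0.12). In frontal cortex it had 4688 to 11922 in light (median 9640) and 9276 to 14202 in dark (median 10257), a log2 fold change of 0.18 (SE 0.14). The estimates had opposite signs, and the test of their difference gave -0.39 (SE 0.19, unadjusted p = 0.0520, edgeR adjusted p = 0.930), with 0 of 710 circRNAs called (0.0%), 30 at an unadjusted p under 0.05 and 1 called by DESeq2. The low end came from the shallowest library of each tissue, ZT13 replicate 1 (dark) in hippocampus and ZT9 replicate 3 (light) in frontal cortex. Leaving out 1 library gave -0.25 to -0.13 in hippocampus, 0.10 to 0.29 in frontal cortex and -0.48 to -0.28 for their difference. Its share of the Dtnb reads in frontal cortex was 71.0% ± 3.58 in dark and 65.5% ± 7.05 in light (SD, n = 9 each), a difference of 5.47 points (exact permutation test, two-sided, adjusted p = 0.233). Without frontal cortex ZT1 replicate 3 that difference was 6.85 points with an adjusted p of 0.0448 (permutation test), the only 1 of 18 such fits past the threshold. Without frontal cortex ZT9 replicate 3, the shallowest library of that tissue and in the light phase, it was 3.89 points and not past the threshold. The other 5 dark minus light differences of shares lay between -1.18 and 1.10 points, with adjusted p between 0.533 and 0.792 (exact permutation test).

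Over the 6 time points the Tulp4 mean was highest at ZT1 in both tissues, at 22485 ± 2140 CPM in hippocampus and 17618 ± 167 in frontal cortex (SD, n = 3), and lowest at ZT13 in hippocampus (17434 ± 8136) and at ZT9 in frontal cortex (14531 ± 5057). Both low means held a library that stood apart and were 21805 and 17444 CPM without it (n = 2), no longer the lowest. The Gigyf2 mean ranged from 17609 ± 977 at ZT1 to 19942 ± 2248 at ZT21 in hippocampus and from 15060 ± 2274 at ZT13 to 16567 ± 570 at ZT1 in frontal cortex. The Dtnb mean ranged from 6801 ± 1359 at ZT13 to 9125 ± 668 at ZT1 in hippocampus and from 8750 ± 3699 at ZT9 to 11975 ± 2021 at ZT17 in frontal cortex. The Dtnb means at ZT13 in hippocampus and ZT9 in frontal cortex held those libraries too and were 7556 and 10781 CPM without them (n = 2), the latter no longer the lowest. The Dtnb mean at ZT1 in hippocampus held the deepest library. Without that library it was 8875 CPM (n = 2), below the 9109 at ZT5 and no longer the highest. The Gigyf2 mean without the libraries that stood apart was 20612 at ZT13 in hippocampus, then the highest, and 14679 at ZT9 in frontal cortex, then the lowest. The highest mean was at most 1.37 times the lowest for any top circle. In the order of the 6 means, all 5 pairs of neighbours had overlapping samples for each circle and tissue. The highest and lowest time points overlapped too, except for the Dtnb top circle in hippocampus, with 8366 to 9625 CPM at ZT1 and 5290 to 7923 at ZT13. In the order of the day, 4 of 30 pairs from ZT1 to ZT21 did not overlap: ZT1 and ZT5 for Tulp4 in frontal cortex, and for Dtnb ZT13 and ZT17, and ZT17 and ZT21, in hippocampus and ZT17 and ZT21 in frontal cortex. With n = 3 at each time point some pairs separate by chance. The share of such pairs over all tested circRNAs was not computed, so these pairs are a description. The fitted 24-h rhythms had log2 amplitudes of 0.08 and 0.09 for Tulp4, 0.04 and 0.04 for Gigyf2 and 0.11 and 0.14 for Dtnb in hippocampus and frontal cortex, with edgeR adjusted p between 0.916 and 1.00.

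**Figure D4:**
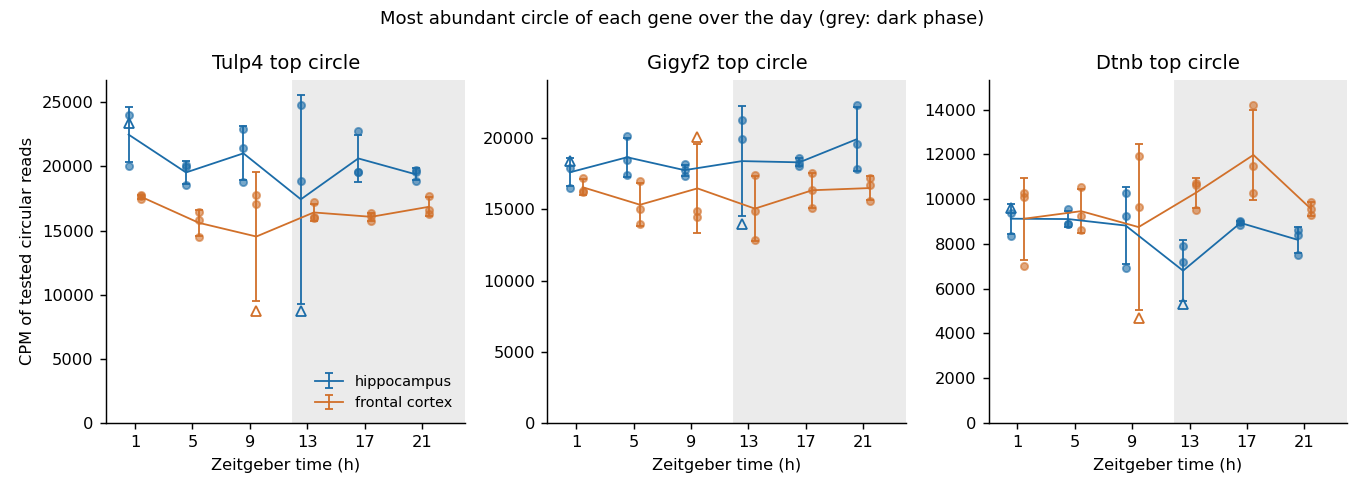
CPM of tested circular reads for the top circles of Tulp4, Gigyf2 and Dtnb against Zeitgeber time in hours, with the dark phase in grey, a point for each sample, lines and bars for the mean and SD of 3 replicates, and open triangles for the 3 libraries that stood apart. Samples of time points that follow each other overlap in 26 of 30 pairs from ZT1 to ZT21, and the widest bars, at ZT13 in hippocampus and ZT9 in frontal cortex for Tulp4 (8136 and 5057 CPM), hold such a library.

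Correlations between the top circles were computed for 6 pairs on log2 CPM over the 18 samples of a tissue, scaled within it. In hippocampus, Tulp4 and Dtnb had r = 0.61 and rho = 0.24 (permutation p = 0.0332 and 0.340, adjusted p = 0.0786 and 0.695), and r = 0.19 without the 2 samples farthest from the median. Tulp4 and Gigyf2 had r = 0.49 and rho = 0.14 (permutation p = 0.0656 and 0.569, adjusted p = 0.0787 and 0.854) and r = -0.39 without such samples. Gigyf2 and Dtnb had r = 0.20 and rho = -0.23 (permutation p = 0.409 and 0.348, adjusted p = 0.409 and 0.695) and r = -0.48 without them. In frontal cortex, Tulp4 and Dtnb had r = 0.62 and rho = -0.05 (permutation p = 0.0524 and 0.858, adjusted p = 0.0786 and 0.896), then r = -0.35. Tulp4 and Gigyf2 had r = -0.54 and rho = -0.03 (permutation p = 0.0440 and 0.896, adjusted p = 0.0786 and 0.896), then r = 0.13. Gigyf2 and Dtnb had r = -0.67 and rho = -0.51 (permutation p = 0.00436 and 0.0325, adjusted p = 0.0262 and 0.195), then r = -0.37. The 2 samples left out included hippocampus ZT13 replicate 1 or frontal cortex ZT9 replicate 3 in every pair, and the relation of Gigyf2 and Dtnb in frontal cortex, the 1 pair past the threshold by r, moved from -0.67 to -0.37 without them. In these libraries Tulp4 stood at 8690 and 8706 CPM and Dtnb at 5290 and 4688, the lowest of their tissues, while Gigyf2 stood at 13980 and 20091, the lowest of hippocampus and the highest of frontal cortex.

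The circRNAs whose log2 CPM over 18 samples was most like that of a top circle were named for each tissue, as a description with no test. They share libraries and depth with the top circle, and the median r over all circRNAs searched was 0.20, 0.15 and 0.15 for Tulp4, Gigyf2 and Dtnb in hippocampus and 0.19, -0.14 and 0.19 in frontal cortex. For Tulp4 these were the Dtnb exon 5 to 9 circle (r = 0.93) and circles of Epha5 (r = 0.93) and Dlgap1 (r = 0.92) in hippocampus, and circles of Stk39 (r = 0.93), Nsd2 (r = 0.93) and Ankib1 (r = 0.92) in frontal cortex. For Gigyf2 they were circles of Tlk1 and Dock4 in hippocampus (r = 0.77 and 0.71) and of Slc8a1, Tcf20 and Gm21992 in frontal cortex (r = 0.70, 0.65 and 0.65). For Dtnb they were circles of Hivep2, Ube2k and Mpp6 in hippocampus (r = 0.82, 0.78 and 0.78) and of A230006K03Rik, Rad52 and Zmym4 in frontal cortex (r = 0.86, 0.83 and 0.82). Without the shallowest library of each tissue all these values were lower, between 0.39 and 0.75. The r of the Dtnb exon 5 to 9 circle, which had 0 reads in hippocampus ZT13 replicate 1, was then 0.56, and those of the Stk39, Nsd2 and Ankib1 circles were 0.43, 0.46 and 0.41. None of the circRNAs given here was named for a top circle in both tissues.

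Circles of genes related to the 3 hosts by protein complex, pathway or protein family were also compared, and none of those tested passed the tissue comparison. Their reads are not set against those of the hosts, which were selected on reads. Of 18 dystrophin complex genes, 11 gave 125 circRNAs with 2599 reads, of which 2 could be tested and 0 were called, where 30.6% of all tested circRNAs were called. Of these, a circle of Dtna, which encodes alpha-dystrobrevin, had 234 reads in hippocampus and 180 in frontal cortex (log2 fold change 0.21, SE 0.23, edgeR adjusted p = 0.538). A circle of the syntrophin gene Sntg1 had 158 and 133 (0.01, SE 0.22, edgeR adjusted p = 1.00). Of 18 translation repression genes, which act with Gigyf2 or in the CCR4-NOT deadenylase, 15 gave 64 circRNAs with 1617 reads, and 0 of 3 tested were called, against the same 30.6%. Circles of Cnot6l, Cnot2 and Cnot4, subunits of CCR4-NOT, had log2 fold changes of 0.27 (SE 0.24), 0.42 (SE 0.23) and -0.02 (SE 0.33). Of 16 tubby and SOCS-box genes, 7 gave 19 circRNAs with 492 reads, and the 1 tested, from Asb3, had 218 and 220 reads and a log2 fold change of -0.27 (SE 0.17, edgeR adjusted p = 0.240). The median log2 fold changes were 0.11, 0.27 and -0.27 for the 3 lists, against 0.02 over all tested circRNAs. With 1 to 3 circRNAs tested per list, 0 calls say little against that share. The calls of 0 stood beside 0 members of each list at an unadjusted p under 0.05 in edgeR.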

How the data were processed

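The 2 tables of back-splice read counts, 1 per tissue, from rRNA-depleted total RNA, were used as the authors deposited them. Per the study's methods, reads were mapped with BWA to GRCm38 and circRNAs called with CIRI2, and the smallest count above 0 was 2. One column of the tables that matched no sample's labels was left out. A circRNA was kept if found in at least 2 replicates of 1 time point. After the filterByExpr function, counts were tested with edgeR 4.0.16 (R 4.3.3; quasi-likelihood, TMM scaling, Benjamini-Hochberg adjustment, threshold 0.05). Fits used time points as groups, within each tissue or over 36 samples, plus a cosine and sine of 24 h. DESeq2 1.42.0, other scalings, no filter, a replicate block and leaving out libraries were the alternatives. Shares were compared by permutation in scipy 1.17.1, with 100000 resamples, exact for 9 against 9. The scripts were tested on simulated data. No batch or sequencing date was given in the sources used here. The labels call the samples replicates and do not name animals, so p-values measure the spread between these samples.

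Named circRNAs were the top circles, each member that passed the filter, the 5 members per gene with most reads, the 3 circRNAs most like each top circle, and up to 4 per list of related genes. One marker list and 1 of the circRNAs most like a top circle are not reported here. The members and lists were chosen with earlier results of these data known. The Dtnb exon 6 to 8 circle passed the filter in the 36-sample fit only. Coefficients of variation, time-point means and likeness without single libraries were added after seeing the data.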

Additional observations from a re-analysis of the deposited data

Results flagged for a closer look

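Level and share of the top circles were searched in 24 groups of 9 samples for a sample far from the others, and 6 were found, where chance gives about 1 in 20 groups. Of these, 5 came from the shallowest library of a tissue. In the dark phase of hippocampus, ZT13 replicate 1 (6754 circular reads) had 8690 CPM of the Tulp4 top circle, against 18830.2 to 24781 in the others, a Tulp4 top share of 74.2% against 88.3% to 95.4%, and 5290 CPM of the Dtnb top circle against 7189 to 9002. In the light phase of frontal cortex, ZT9 replicate 3 (8107 circular reads) had 8706 CPM of the Tulp4 top circle against 14499 to 17794, and a Tulp4 top share of 76.5% against 90.0% to 93.5%. In the dark phase of frontal cortex, ZT17 replicate 2 (29062 circular reads) had 14202 CPM of the Dtnb top circle against 9276 to 11467. The part of depth in these values was not tested.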

How the results depend on the processing

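The tissue differences of the Tulp4 top circle and the Dtnb exon 5 to 9 circle kept their direction and their side of the threshold under every alternative run. Leaving out 1 library gave 0.27 to 0.39 for the Tulp4 top circle and 0.20 to 0.26 for the Gigyf2 top circle, whose call was lost in 3 of 36 such fits. Counts of called circRNAs moved most without a filter on low counts, to 346 between tissues, 614 (hippocampus) and 521 (frontal cortex) for a 24-h rhythm, 14 and 12 over the time points, 4 between phases in hippocampus and 2 for the phase difference between tissues. Within a tissue these fits covered all 5505 circRNAs kept in hippocampus and all 4790 kept in frontal cortex, against 582 and 518 with the filter. None of the 5 members tested with the filter in each tissue was among the calls over time. Results without the filter are not given for the other members. DESeq2 gave 1 call for each rhythm, 1 between phases in hippocampus, 0 over the time points in frontal cortex and 1 for the phase difference between tissues, and scaling to the total gave 1 between phases in hippocampus. Leaving out 1 library gave 0 to 1 calls between phases and over the time points in hippocampus, over the time points in frontal cortex and for the phase difference between tissues.
Some small differences, none past the threshold, changed sign. Without a filter these were dark minus light of the Gigyf2 top circle, 0.075 in frontal cortex and -0.0080 in hippocampus, and the phase difference between tissues, -0.10 for the Gigyf2 top circle, -0.10 for the Dtnb exon 5 to 9 circle and -0.14 for the exon 6 to 8 circle. Without the 3 libraries that stood apart, dark minus light in frontal cortex was 0.034 for the Gigyf2 and -0.044 for the Tulp4 top circle, and the phase difference between tissues was 0.030 for the Tulp4 top circle. The tissue difference of the Dtnb share kept its sign at 4.92 points and lost its call, and the Tulp4 share, dark minus light, was -0.64 points in frontal cortex and 0.63 in hippocampus. The tissue difference of the Gigyf2 share was -0.13 points over circles found in at least 2 replicates of a time point and -0.17 with libraries thinned to the smallest total. Leaving out 1 library gave ranges of -0.051 to 0.034 (Gigyf2) and -0.044 to 0.11 (Tulp4) for dark minus light in frontal cortex, -0.26 to 0.0012 for the Dtnb exon 5 to 9 circle in hippocampus, and -0.082 to 0.19 and -0.36 to 0.20 for the phase difference between tissues of the exon 5 to 9 and exon 6 to 8 circles. For shares they were, in points, -0.072 to 0.39 (Gigyf2, tissues), -1.33 to 0.48 (Tulp4, tissues), 3.89 to 6.85 (Dtnb, dark minus light, frontal cortex, with no change of sign and past the threshold at 6.85), -1.61 to 0.51 (Dtnb, hippocampus), -1.86 to 0.78 (Tulp4, hippocampus) and -0.64 to 1.49 (Tulp4, frontal cortex). The cause of these changes was not tested.
No pairing by equal replicate numbers was seen. Deviations of same-numbered samples had a mean correlation of -0.0034 in hippocampus, -0.011 in frontal cortex and -0.016 between the tissues. Between the tissues, 4 of 18 hippocampus samples correlated best with their own number. These correlations cannot exclude that samples of both tissues came from the same animal, which the labels do not name. With the replicate block, 188 circRNAs differed between tissues against 217, and the phase difference between tissues of the Dtnb exon 6 to 8 circle was -0.050. The block changed no call of a member. A depth of a few reads per library limits all circles beyond the 6 tested.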

Other observations

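Besides the main junctions, some circRNAs ended a few bases away from the top donor. A Tulp4 circle ending at 6139151, not at 6139156, had 5 reads, all in frontal cortex. A Gigyf2 circle ending at 87380004, not at 87380008, had 2 reads, all in hippocampus. Of the 65 members, 15 in Tulp4, 13 in Gigyf2 and 27 in Dtnb had both ends on annotated exon ends, and those that did not held 18, 18 and 15 reads.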
